A study of Mus musculus with 20 samples.

Results

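The genes described here are 38 enzymes and enzyme regulators of glycolysis, the pentose phosphate pathway and the TCA cycle, chosen by symbol and all found among the 22878 gene symbols of the RNA tables. They comprise 14 genes of glycolysis, 2 of lactate dehydrogenase, 6 of pyruvate dehydrogenase and its kinases (here called pyruvate entry), 11 of the TCA cycle and 5 of the pentose phosphate pathway. All 38 passed the filter on low counts in both tissues. RNA was sequenced from mouse CD4 T cells in 6 groups of 2 libraries, sorted by reporters of T-bet, the factor that directs T helper 1 fate and is encoded by Tbx21. Both spleen groups came from naive C57BL/6 ZTCE-tdTomato mice, which carry T-bet-ZsGreen-T2A-CreERT2 and a Rosa26-loxP-STOP-loxP-tdTomato allele. Their cells were CD4+CD44highCD25- and tdTomato+, and differed in whether the T-bet-ZsGreen reporter was on (ZsGreen+) or off (ZsGreen-). The 4 lymph node groups came from C57BL/6 mice with T-bet-Cre and the same tdTomato allele, taken from the draining node on day 16 after immunization with AS15 in CFA. AS15 tetramer-binding cells were sorted as CXCR5highPD1high (labelled Tfh, follicular helper) or CXCR5lowPD1low (labelled non-Tfh), and each of these as Tomato+ or Tomato-. In both mouse lines Cre under T-bet control marks a cell for good. With the T-bet-Cre of the lymph node groups, tdTomato covers present and past T-bet expression. The CreERT2 of the spleen groups acts only with tamoxifen, so there tdTomato covers T-bet expression only while tamoxifen acted. The sources used here do not give the use of tamoxifen, nor the age and number of the animals.

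Glycolysis splits glucose into pyruvate in the cytosol, and lactate dehydrogenase can turn that pyruvate into lactate, which regenerates the oxidized cofactor that glycolysis needs. Pyruvate dehydrogenase instead feeds pyruvate as acetyl-CoA into the mitochondrial TCA cycle, and the pyruvate dehydrogenase kinases shut that enzyme off by phosphorylating it. The pentose phosphate pathway branches from the first glycolytic intermediate and makes NADPH and the ribose of nucleotides. Activated T cells are known for a high rate of glycolysis with lactate release, and the hypoxia factor HIF-1 alpha and Myc are known activators of glycolytic genes.

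Total counts over genes were 13169783 to 24174592 per library, and the 38 genes took 0.720% to 0.874% of them. Nothing in the labels says that the 2 libraries of a group came from separate animals, so p-values measure the spread between libraries alone, and this may be technical. The spread was small in the spleen and large in the lymph node, with a common biological coefficient of variation of 0.0867 and 0.908. In the spleen no member of the list was more than 2-fold apart between the 2 libraries of a group. In the 4 lymph node groups 4 to 7 of the 38 were, against 33.9% to 42.0% of the 10522 genes with a mean of at least 1 RPKM. Pfkm was so in all 4 of these groups, and Hk2, Dlat, Pdk2, Aldoc, G6pdx and Rpia in 2 of them. Tbx21 was higher in ZsGreen+ than in ZsGreen- cells (log2 fold change 2.11) and in Tomato+ than in Tomato- cells (3.35), and Bcl6, Cxcr5 and Pdcd1 were higher in Tfh than in non-Tfh cells (2.11, 2.20 and 2.14), each passing the test. Replicate 2 of Tfh Tomato- and of non-Tfh Tomato- stood apart by other cells' markers. The summed RPKM of 10 neutrophil genes was 450.0 and 366 in them, 10.2 and 6.36 in replicate 1 of the same groups and 0.764 to 87.7 in the 4 Tomato+ libraries, and that of 7 erythroid genes was 22.6 and 3.94 against 0.381 and 0.291 in replicate 1. For the 38 genes, the lymph node calls below are therefore also given without these 2 libraries. In these bulk samples, fewer cells of a type and less RNA per cell cannot be told apart.

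Across all 12 libraries the list was led by Ldha, the muscle-type lactate dehydrogenase subunit, with a mean of 455 RPKM (reads per kilobase of transcript, scaled to sequencing depth). It was followed by the aldolase gene Aldoa (405), the pyruvate kinase gene Pkm2 (321), the mitochondrial malate dehydrogenase gene Mdh2 (282) and the transaldolase gene Taldo1 (164). Aldoa and Pkm2 together made up 60.9% to 69.3% of the summed RPKM of the 14 glycolysis genes in every library. In the middle range were Eno1 (enolase, 103), Mdh1 (cytosolic malate dehydrogenase, 98.0), the isocitrate dehydrogenase subunit genes Idh3g (92.6) and Idh3b (83.7), Gpi1 (glucose phosphate isomerase, 68.7), Tpi1 (triose phosphate isomerase, 68.0), Cs (citrate synthase, 57.5) and Tkt (transketolase, 56.9). Gapdh (2.24), Pgk1 (4.61) and Pgam1 (1.51), which encode the enzymes between the triose phosphates and enolase, were listed far below their neighbours in the pathway. The RefSeq gene table (GRCm38.p6) was searched for pseudogenes named after a member, with its symbol followed by -ps. It names 3 such pseudogenes of Aldoa, 3 of Gapdh, 2 of Pgk1, 2 of Pgam1, 3 of Ldha and 1 of Ldhb. The sources used here do not say how reads that match several such copies were counted, so the levels of these 6 genes are uncertain. Pseudogenes under other names were not counted, so the levels of other members may be uncertain for the same reason. The plot of all levels by library shows these orders of magnitude.

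**Figure D1:**
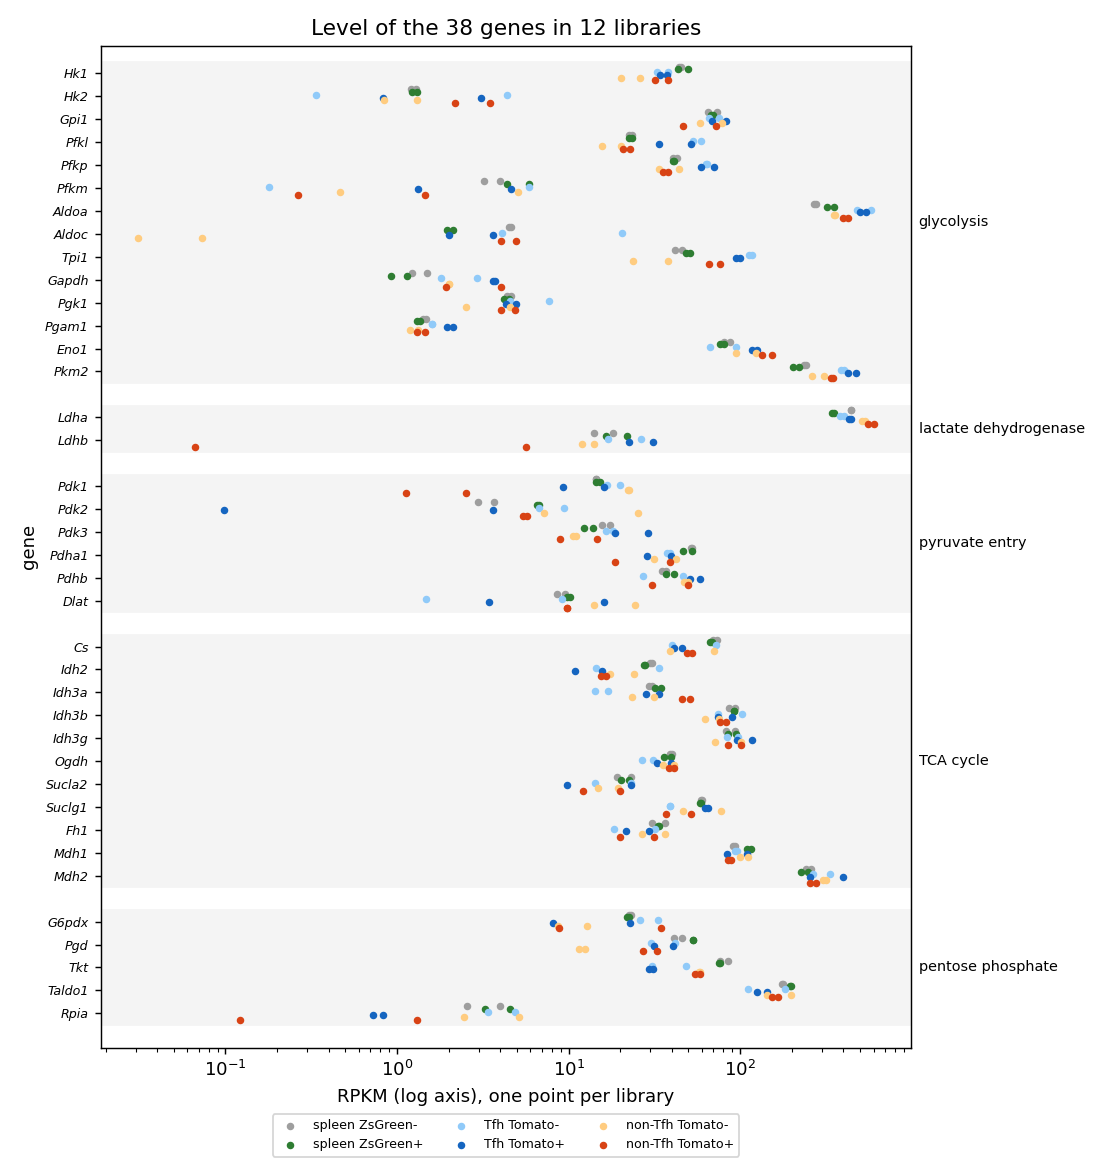
RPKM of the 38 genes on a log axis, 1 point per library, coloured by the 6 groups and ordered by pathway step within each arm. Ldha, Aldoa, Pkm2, Mdh2 and Taldo1 lie above 100 RPKM in every library, the 4 spleen libraries lie close together, and Pfkm, Pdk2, Aldoc, Ldhb and Rpia scatter widely among the lymph node libraries.

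The genes on which the comparisons below turn were Ldha, the pyruvate dehydrogenase kinase gene Pdk1, the liver-type phosphofructokinase gene Pfkl, Tpi1 and the brain-type aldolase gene Aldoc. The 150 bases before their start sites are shown because the hypoxia factor gene Hif1a itself differed between the groups, as described further on. The part of Hif1a in the differences of these 5 genes was not tested. Sequences are from RefSeq on GRCm38.p6, written 5′ to 3′ on the strand of the gene, from the more upstream window where the table gives 2 starts (Ldha, Pdk1 and Aldoc). Capitals mark the cores ACGTG and GCGTG of the hypoxia response element and their reverse complements CACGT and CACGC.
Ldha chr7:46845654-46845803 (+): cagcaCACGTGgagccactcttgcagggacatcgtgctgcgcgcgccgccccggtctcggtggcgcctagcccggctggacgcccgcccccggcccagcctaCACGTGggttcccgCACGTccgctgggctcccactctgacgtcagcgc
Pdk1 chr2:71873074-71873223 (+): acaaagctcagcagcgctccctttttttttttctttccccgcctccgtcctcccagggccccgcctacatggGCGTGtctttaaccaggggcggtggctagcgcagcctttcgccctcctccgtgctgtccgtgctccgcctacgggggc
Pfkl chr10:78009808-78009957 (-): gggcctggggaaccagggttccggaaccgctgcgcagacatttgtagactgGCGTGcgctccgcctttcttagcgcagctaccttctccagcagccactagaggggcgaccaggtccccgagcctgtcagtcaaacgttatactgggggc
Tpi1 chr6:124814159-124814308 (-): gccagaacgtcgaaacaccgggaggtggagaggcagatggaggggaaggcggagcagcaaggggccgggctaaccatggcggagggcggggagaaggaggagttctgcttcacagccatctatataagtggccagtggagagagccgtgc
Aldoc chr11:78322923-78323072 (+): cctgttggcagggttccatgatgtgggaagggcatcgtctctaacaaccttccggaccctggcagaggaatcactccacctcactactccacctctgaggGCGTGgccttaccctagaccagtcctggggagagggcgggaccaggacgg
The Ldha stretch held 5 matches, 4 of which overlap in pairs (CACGT at -145 and ACGTG at -144, CACGT at -48 and ACGTG at -47) and the fifth of which was CACGT at -34. Pdk1 held GCGTG at -78, Pfkl at -99 and Aldoc at -50, and Tpi1 held no match in this stretch. Before the other, more downstream start, which is not printed, Ldha held only CACGC at -59, Aldoc held CACGC at -39, and Pdk1 held no match. The matches of Ldha and Pdk1 thus depend on the start used. Over the longer windows of 250 bases before to 50 after a start, 37 of the 38 genes were found (not Idh3a), with 56 windows. ACGTG on either strand was in 42.9% of these 56 windows and in 19.6% of all 32851 windows of the table, and GCGTG in 58.9% and 32.4%. The E-box CACGTG, which contains the first core, was in 10.7% of the 56 windows and 7.15% of all windows. The T-box core TCACACC was in 3.57% and 3.98%. All windows cover 27025 genes and were not limited to genes expressed here or matched for base composition, so these shares are a description only. A match is a run of letters and was not tested as a binding site.

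In spleen, few of these genes differed between ZsGreen+ and ZsGreen- cells, and the differences did not run one way along the pathway. Lactate dehydrogenase Ldha, the aldolase Aldoc and the kinase Pdk3 were lower in ZsGreen+ cells, while Aldoa, the kinase Pdk2 and Mdh1 were higher. The remaining 32 genes, among them all 5 pentose phosphate genes and 10 of 11 TCA cycle genes, did not pass. Of the 38 genes 3 rose and 3 fell (edgeR quasi-likelihood test, adjusted p below 0.05), when 23.8% of the 12918 genes tested passed. At an unadjusted p below 0.05 there were 9 of 38, against 35.1% of all genes. The median log2 fold change of the 38 was -0.05, and that of all genes tested was 0.00.

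Ldha was listed at 443 and 443 RPKM in the 2 ZsGreen- libraries and at 355 and 344 in the 2 ZsGreen+ libraries. The groups did not overlap, and the fitted log2 fold change was -0.38 ± 0.07 (SE; adjusted p = 0.00469). Its partner Ldhb, the heart-type subunit, had 18.2 and 14.0 RPKM in ZsGreen- and 16.5 and 21.9 in ZsGreen+ cells, overlapping values whose change of 0.22 ± 0.15 did not pass. The sum of both subunits was 459 ± 2.90 RPKM in ZsGreen- and 369 ± 3.78 in ZsGreen+ cells (SD, n = 2). Of the 5 arm sums, that of lactate dehydrogenase alone was lower in both ZsGreen+ than in both ZsGreen- libraries, and that of the pentose phosphate pathway alone was higher (352 and 350.5 against 322 and 332 RPKM).

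Among aldolases, the abundant Aldoa had 277 and 269 RPKM in ZsGreen- and 319 and 352 in ZsGreen+ cells, a log2 change of 0.26 ± 0.08 (adjusted p = 0.0340). The minor form Aldoc went the other way, from 4.51 and 4.62 to 2.11 and 1.95 RPKM (-1.2 ± 0.18, adjusted p = 0.00101). Aldoc was thus the member with the largest fitted change, yet it made up 1.65% of aldolase RPKM in ZsGreen- and 0.604% in ZsGreen+ cells. The muscle-type phosphofructokinase Pfkm (0.46 ± 0.17, adjusted p = 0.0850) and Pkm2 (-0.21 ± 0.07, adjusted p = 0.0649) did not pass. Gapdh, with 1.495 and 1.22 against 1.14 and 0.917 RPKM, rested on 31 to 55 reads per library and did not pass either (-0.42 ± 0.35).

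Of the kinases that block pyruvate dehydrogenase, Pdk2 stood at 2.97 and 3.68 RPKM in ZsGreen- and at 6.54 and 6.73 in ZsGreen+ cells (0.95 ± 0.15, adjusted p = 0.00143). Pdk3 stood at 17.3 and 15.8 against 13.9 and 12.4 RPKM (-0.37 ± 0.10, adjusted p = 0.0300), and Pdk1 at 14.5 and 14.5 against 14.5 and 15.2 (-0.01 ± 0.07, not passing). The 3 kinases summed to 34.4 ± 0.627 RPKM in ZsGreen- and 34.7 ± 0.461 in ZsGreen+ cells. Pdk2 made up 9.68% ± 1.63 of that sum in ZsGreen- and 19.1% ± 0.640 in ZsGreen+ cells, and Pdk3 48.1% ± 2.40 and 37.9% ± 2.67. The enzyme itself, encoded by Pdha1, Pdhb and Dlat, did not pass, with changes of -0.12 ± 0.08, 0.08 ± 0.08 and 0.10 ± 0.09. In the TCA cycle Mdh1 rose from 90.5 and 93.6 to 109 and 116 RPKM (0.25 ± 0.07, adjusted p = 0.0366), and the other 10 genes lay between -0.16 (Idh2) and 0.11 (Idh3a). In the pentose phosphate pathway Pgd, which makes NADPH, came nearest to passing, at 41.1 and 45.8 against 53.1 and 53.2 RPKM (0.25 ± 0.08, adjusted p = 0.0594).

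Aldoc, Ldha and Pdk2 passed in each of the 4 fits that left out 1 library. Aldoa was lost without ZsGreen+ replicate 2, Pdk3 without that library or without ZsGreen- replicate 1, and Mdh1 in all but the fit without ZsGreen- replicate 2, with adjusted p up to 0.224, 0.190 and 0.183, so that without ZsGreen+ replicate 2 only 3 of the 38 passed. The same contrast, in which 23.8% of all genes tested passed, also moved markers of other cells. The summed RPKM of 7 NK and innate-like T cell genes was 14.3 and 15.9 in ZsGreen- and 144 and 133 in ZsGreen+ cells, all 7 rising and none at 0. Of 21 cell cycle genes 13 fell and 2 rose (summed RPKM 621 and 583 against 541 and 520), and 5 of 11 CD4 T cell genes fell. Of 7 dendritic cell genes 3 rose (Ccr9, Xcr1 and Itgax), with a sum of 8.79 and 7.99 against 36.2 and 41.2 RPKM. Of 14 macrophage and monocyte genes 4 rose and 1 fell (599 and 617 against 771 and 619 RPKM), and of 10 neutrophil genes 1 rose and none fell (778 and 1050.3 against 1144 and 1197 RPKM), with none of these genes at 0. The part of these cells and of cycling in the metabolic differences was not tested.

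**Figure D2:**
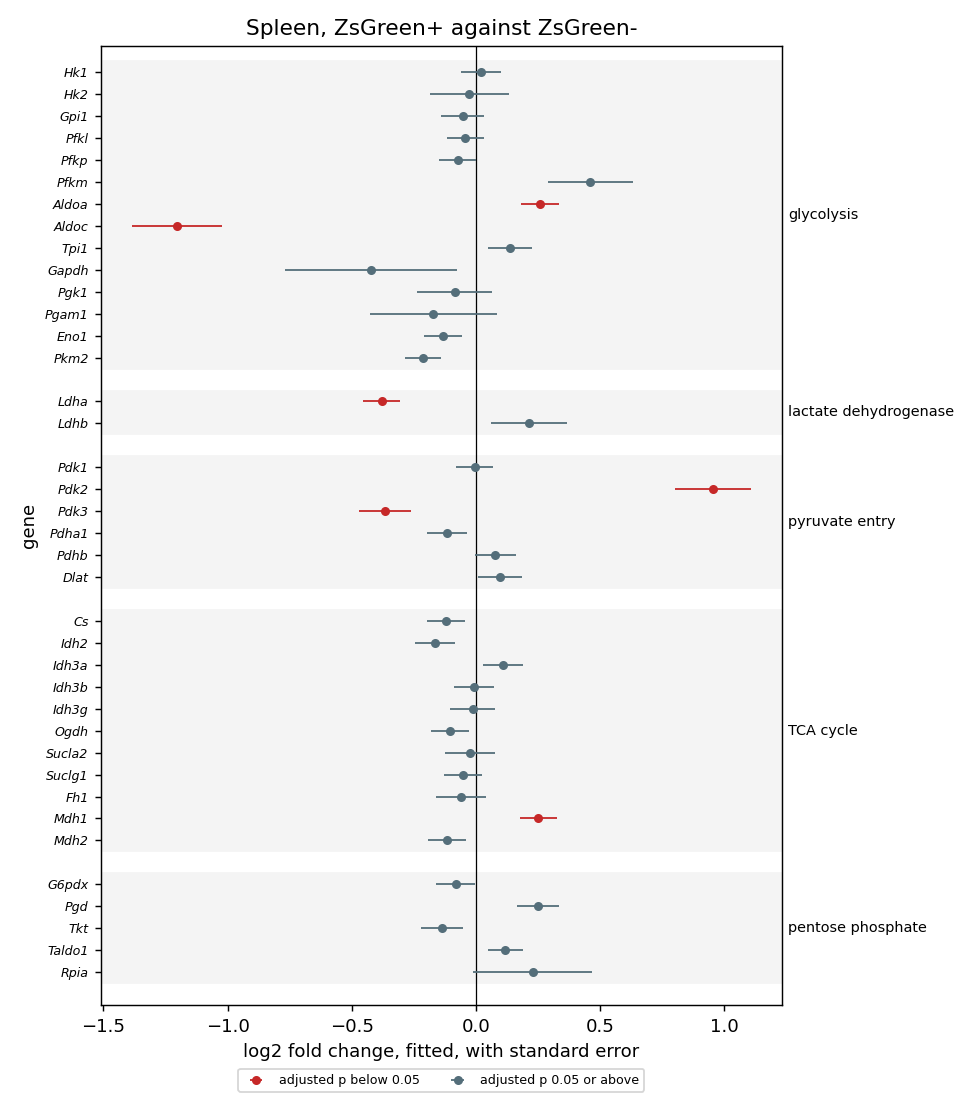
Fitted log2 fold change of the 38 genes in spleen ZsGreen+ against ZsGreen- cells, with the standard error as a bar and the genes grouped by pathway arm. The 6 genes that passed are in red: Aldoa, Pdk2 and Mdh1 to the right of 0, Aldoc, Ldha and Pdk3 to the left.

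Other genes of the same pathways, from further lists, were compared in the same fit, in which 23.8% of all genes tested passed. The glucose transporter gene Slc2a3 rose from 15.3 and 15.9 to 32.6 and 40.5 RPKM (1.19 ± 0.10), and the lactate exporter gene Slc16a3 rose by 0.72 ± 0.10, while Slc2a1, the main glucose transporter of activated T cells, was at 25.1 and 26.1 against 25.9 and 25.9 RPKM and did not pass. Of 21 further glycolysis genes tested 3 rose and 3 fell, including the neuronal enolase Eno2 (-1.93 ± 0.35, below 1 RPKM in every library), Bpgm, which makes bisphosphoglycerate (-0.50 ± 0.10), and Pgm2l1 (0.66 ± 0.14). Of 8 further pentose phosphate genes 2 rose and none fell, with H6pd, the glucose phosphate dehydrogenase of the endoplasmic reticulum, at 1.07 ± 0.12 and Tktl1 at 0.91 ± 0.21. Of 19 further TCA cycle and linked genes 3 rose and 2 fell, with the aspartate aminotransferase Got1 at 0.53 ± 0.08, the succinate dehydrogenase assembly factor Sdhaf1 at 0.43 ± 0.08 and the glutamate dehydrogenase Glud1 at -0.37 ± 0.09. None of 10 further pyruvate dehydrogenase genes passed, and 1 of these had an unadjusted p below 0.05, against 35.1% of all genes. Of 21 regulators 5 rose and 5 fell. Hif1a, which encodes HIF-1 alpha, fell from 57.9 and 61.2 to 38.4 and 35.1 RPKM (-0.73 ± 0.08, adjusted p = 0.000200), and Bcl6 and Foxo1, a factor of resting T cells, fell as well (-1.12 ± 0.11 and -0.85 ± 0.10). Myc rose (0.66 ± 0.08, adjusted p = 0.000378), as did Rptor, a subunit of the growth kinase complex mTORC1 (0.64 ± 0.10), and Txnip, an inhibitor of glucose uptake (0.90 ± 0.13).

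In the lymph node, glycolysis genes were compared first between Tfh and non-Tfh cells. The summed RPKM of the 14 glycolysis genes was 1302 to 1453 in the 4 Tfh libraries. In the 4 non-Tfh libraries it was 887 to 1165, with no overlap. Within non-Tfh cells this sum was 887 and 988 RPKM in the Tomato- and 1117 and 1165 in the Tomato+ libraries. Aldoa and Pkm2, neither of which passed, made up 66.0% to 69.3% of the sum. Pfkl and Tpi1 passed the test, more than 2-fold higher in Tfh cells when averaged over Tomato+ and Tomato- cells. Mean RPKM of Tpi1 in Tfh and non-Tfh cells was 97.5 and 71.1 in Tomato+ but 115 and 31.0 in Tomato- cells. That of Pfkl was 42.7 and 21.8 in Tomato+ and 56.1 and 18.0 in Tomato- cells. Ldha and Tkt lay lower in every Tfh library than in every non-Tfh library, but did not pass. Averaged over Tomato+ and Tomato- cells, 2 of the 38 genes rose and none fell (edgeR quasi-likelihood test, adjusted p below 0.05), when 1.07% of the 11746 genes tested passed. At an unadjusted p below 0.05 there were 12, of which 8 were higher and 4 lower in Tfh cells, against 12% of all genes. Of the 14 glycolysis genes 13 had a positive and 1, Eno1, a negative fold change (-0.40 ± 0.18, not passing). Within Tomato+ cells 9 of the 14 were positive and 5 negative, with 2 at an unadjusted p below 0.05, and within Tomato- cells 12 were positive and 2 negative, with 6. Their median averaged log2 fold change was 0.37, that of the 11 TCA cycle genes -0.10 and that of all genes tested 0.01.

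Pfkl, a subunit of the enzyme that commits sugar to glycolysis, had 59.0 and 53.1 RPKM in Tfh Tomato-, 51.8 and 33.7 in Tfh Tomato+, 15.6 and 20.3 in non-Tfh Tomato- and 23.0 and 20.7 in non-Tfh Tomato+ cells. The lowest Tfh library lay above the highest non-Tfh library, and the averaged log2 fold change was 1.24 ± 0.21 (adjusted p = 0.0426). Tpi1 had 113 and 117 RPKM in Tfh Tomato-, 95.1 and 99.96 in Tfh Tomato+, 38.1 and 23.9 in non-Tfh Tomato- and 66.1 and 76.0 in non-Tfh Tomato+ cells, again without overlap (1.1 ± 0.20, adjusted p = 0.0496). Both sit just inside the threshold and each passed in only 1 of the 8 fits that left out 1 library, Pfkl without Tfh Tomato+ replicate 2 and Tpi1 without non-Tfh Tomato- replicate 1. Over all 8 fits the adjusted p was up to 0.141 for Pfkl and 0.174 for Tpi1, and the fold changes were 1.05 to 1.38 and 0.96 to 1.28. Without both Tomato- replicate 2 libraries neither passed (1.39, adjusted p = 0.142, and 0.95, adjusted p = 0.213).

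The platelet-type phosphofructokinase Pfkp had 59.5 to 70.8 RPKM in the Tfh and 33.7 to 43.9 in the non-Tfh libraries (0.70 ± 0.16, adjusted p = 0.113). Pkm2, the last enzyme of glycolysis, had 386 to 476 against 263 to 347 RPKM (0.36 ± 0.11, adjusted p = 0.234) and Aldoa 484 to 580 against 352 to 428 (0.39 ± 0.12, adjusted p = 0.235). These 3 genes did not overlap between Tfh and non-Tfh libraries either, and none passed. Hk1, the hexokinase that first phosphorylates glucose, had 33.0 and 38.1, 34.2 and 37.5, 20.3 and 26.2, and 31.8 and 37.97 RPKM in Tfh Tomato-, Tfh Tomato+, non-Tfh Tomato- and non-Tfh Tomato+ cells. The 2 non-Tfh Tomato- libraries were the lowest, and the averaged change of Hk1 was 0.25 ± 0.18 (not passing). Hk2, the inducible hexokinase, was at 0.335 to 4.39 RPKM and overlapped between Tfh and non-Tfh libraries. Pfkm had 5.90 and 0.180 RPKM in Tfh Tomato-, 4.65 and 1.32 in Tfh Tomato+, 5.09 and 0.468 in non-Tfh Tomato- and 1.47 and 0.265 in non-Tfh Tomato+ cells, so that the 2 libraries of each group lay more than 2-fold apart (0.91 ± 1.34, not passing).

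**Figure D3:**
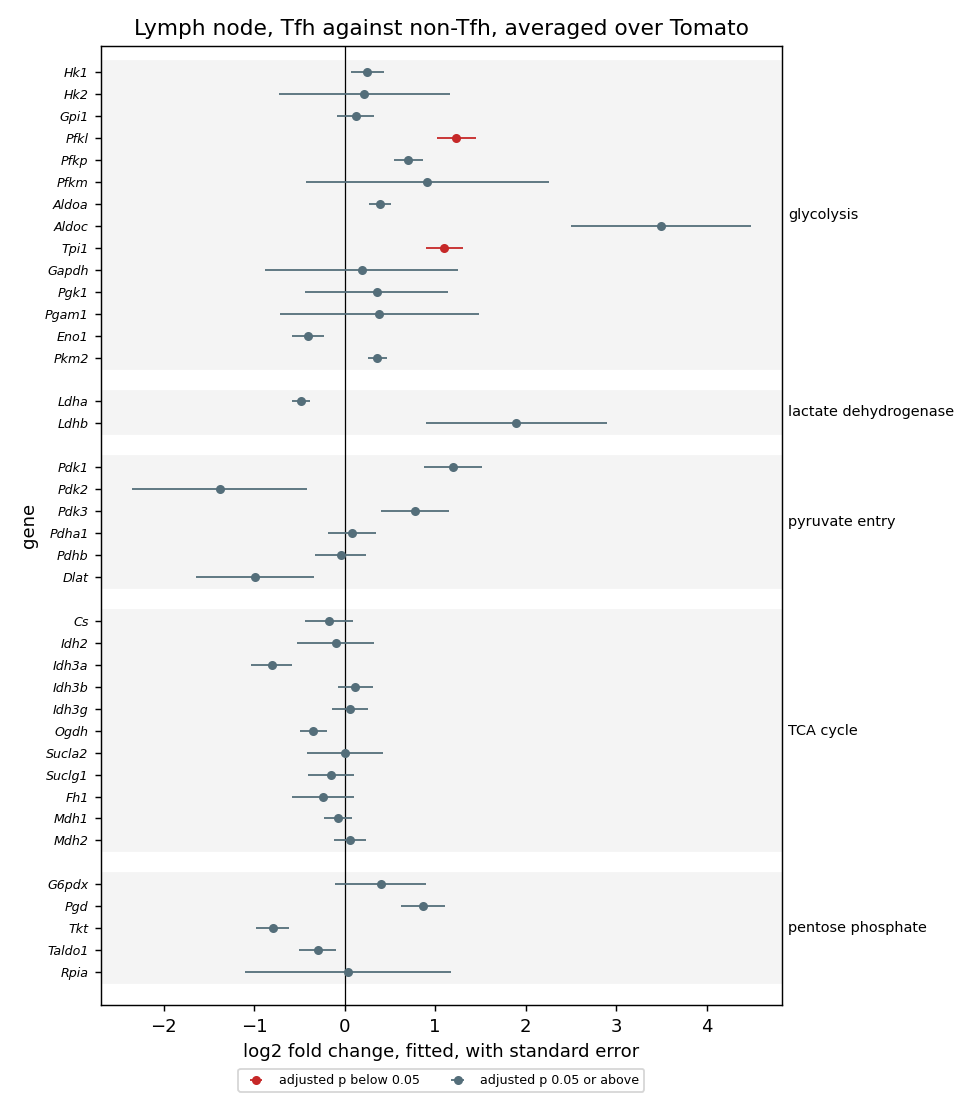
Fitted log2 fold change of the 38 genes in Tfh against non-Tfh cells, averaged over Tomato+ and Tomato-, with the standard error as a bar. Pfkl and Tpi1 (red) passed, and all glycolysis genes but Eno1 lie to the right of 0, several with wide bars.

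Counting genes whose RPKM in all 4 Tfh libraries lay on 1 side of all 4 non-Tfh libraries gave 8 of the 38 above (Aldoa, Ldhb, Pdk3, Pfkl, Pfkp, Pgam1, Pkm2 and Tpi1) and 2 below (Ldha and Tkt), when 6.84% of the 10522 genes with a mean of at least 1 RPKM did so. Ldha had 385 and 402 RPKM in Tfh Tomato-, 431 and 445 in Tfh Tomato+, 515 and 537 in non-Tfh Tomato- and 557 and 602 in non-Tfh Tomato+ cells (-0.48 ± 0.10, adjusted p = 0.0893). Ldhb had 17.0 and 26.4, 22.5 and 31.1, 11.9 and 14.0, and 0.0666 and 5.66 RPKM in the same order. The lowest of these Ldhb values rested on 2 reads, and the fitted change of 1.90 ± 1.0 did not pass. Lactate dehydrogenase was therefore the arm in which the more abundant gene and the arm sum lay lower in Tfh cells (402 to 476 RPKM) than in non-Tfh cells (527 to 607).

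Tkt, which joins the pentose phosphate pathway to glycolysis, had 30.9 and 48.4 RPKM in Tfh Tomato-, 31.1 and 29.3 in Tfh Tomato+, 58.4 and 57.4 in non-Tfh Tomato- and 58.5 and 54.7 in non-Tfh Tomato+ cells (-0.80 ± 0.19, adjusted p = 0.126). Pgd had 30.2 and 42.0, 31.7 and 40.8, 12.5 and 11.5, and 32.8 and 27.1 RPKM in that order, so that the non-Tfh Tomato- libraries alone were low (0.86 ± 0.24, adjusted p = 0.211). G6pdx, the entry enzyme of the pathway, had 25.9 and 33.0, 8.10 and 22.8, 12.8 and 8.66, and 8.77 and 34.7 RPKM in that order and overlapped between Tfh and non-Tfh libraries (0.40 ± 0.50). Taldo1 ranged from 111 to 184 RPKM in Tfh and from 144 to 197 in non-Tfh libraries, with overlap. Among the TCA cycle genes Idh3a, the catalytic subunit of isocitrate dehydrogenase, had 14.3 and 17.0 RPKM in Tfh Tomato-, 28.2 and 33.9 in Tfh Tomato+, 23.4 and 31.5 in non-Tfh Tomato- and 51.4 and 46.1 in non-Tfh Tomato+ cells (-0.80 ± 0.23, adjusted p = 0.208). Its partners Idh3b and Idh3g had fold changes of 0.12 ± 0.20 and 0.06 ± 0.20 and did not pass. Cs, Ogdh, Sucla2, Suclg1, Fh1, Mdh1, Mdh2 and Idh2 overlapped between Tfh and non-Tfh libraries, with fold changes from -0.34 (Ogdh) to 0.06 (Mdh2). The arm sums of the TCA cycle overlapped, at 768 to 918 RPKM in Tfh and 750 to 899 in non-Tfh libraries.

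Within Tomato+ and Tomato- cells taken apart, no member passed in edgeR. In Tomato+ cells 6 of 38 had an unadjusted p below 0.05 (3 higher and 3 lower in Tfh cells), against 8.19% of all genes, when 0.0766% passed after adjustment, and DESeq2 called 3 (Ldha, Pdk1 and Tkt). In Tomato- cells the numbers were 9 of 38 (7 higher and 2 lower), against 9.02%, when 0.179% passed, and DESeq2 called 6 (Pfkl, Aldoa, Aldoc, Tpi1, Ldha and Pgd). DESeq2 passed 3.53% and 4.51% of all genes in these comparisons. The nearest to passing in edgeR were Tpi1 in Tomato- cells (1.85 ± 0.29, adjusted p = 0.0676), Pdk1 in Tomato+ cells (2.73 ± 0.48, adjusted p = 0.101) and Pfkl in Tomato- cells (1.59 ± 0.30, adjusted p = 0.133). Aldoc had 3 and 1 reads in the 2 non-Tfh Tomato- libraries and 93 to 1013 reads in the other 6 lymph node libraries, so its fitted changes in comparisons with that group depend on the prior count. In RPKM Aldoc stood at 20.4 and 4.07 in Tfh Tomato-, 2.01 and 3.65 in Tfh Tomato+ and 4.95 and 4.03 in non-Tfh Tomato+ cells.

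**Figure D4:**
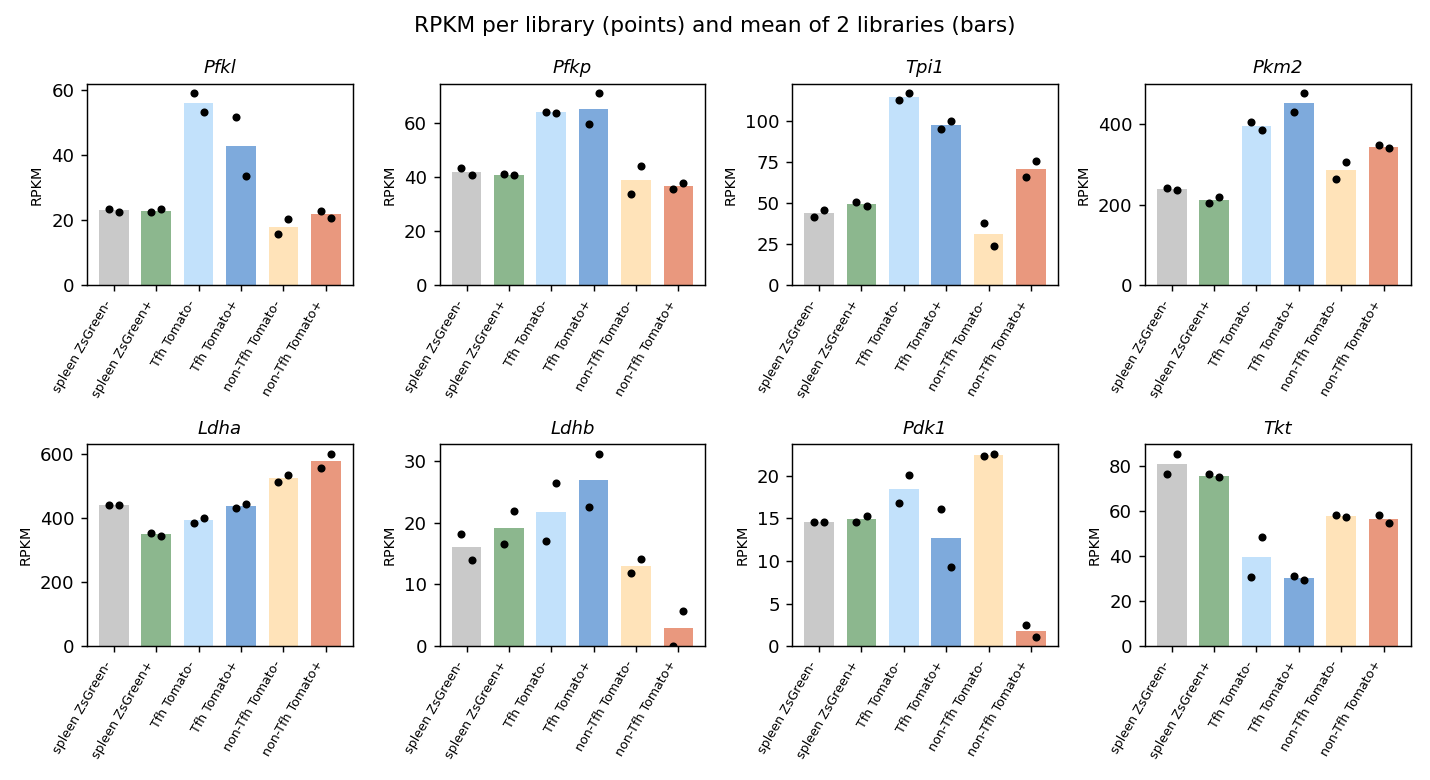
RPKM of 8 genes in the 6 groups, with the mean of 2 libraries as a bar and each library as a point, on axes that start at 0. Pfkl, Pfkp, Tpi1 and Pkm2 are higher in the 4 Tfh than in the 4 non-Tfh libraries, Ldha and Tkt are lower, and Pdk1 is at 2.51 and 1.12 RPKM in the 2 non-Tfh Tomato+ libraries only.

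Hif1a was 1 of 2 regulators that passed for Tfh against non-Tfh cells, when 1.07% of all genes tested passed. The other was Bcl6, the Tfh factor. Hif1a had 216 and 249 RPKM in Tfh Tomato-, 223 and 241 in Tfh Tomato+, 91.9 and 99.9 in non-Tfh Tomato- and 134 and 126 in non-Tfh Tomato+ cells. The averaged log2 fold change of Hif1a was 0.98 ± 0.11 (adjusted p = 0.00636). Of the other regulators tested, 19 did not pass, and neither did any of 8 transport genes, 16 further glycolysis genes, 9 further pyruvate dehydrogenase genes, 18 further TCA cycle genes or 8 further pentose phosphate genes. At an unadjusted p below 0.05 there were 1, 1, 0, 5 and 0 genes in these 5 lists, against 12% of all genes tested. Slc2a1 had 23.5 to 56.8 RPKM in the Tfh and 15.9 to 36.0 in the non-Tfh libraries, with overlap (0.73 ± 0.31, adjusted p = 0.410). Pooled over Tomato, the summed RPKM of 14 macrophage and monocyte genes overlapped, at 480 to 1403 in Tfh and 242 to 1745 in non-Tfh libraries. Within Tomato- cells it was lower in Tfh (1185 and 1403) than in non-Tfh libraries (1624 and 1745). Within Tomato+ cells it was higher in Tfh (636 and 480) than in non-Tfh libraries (302 and 242). Of 11 CD4 T cell genes 1 passed (Thy1, -1.17 ± 0.17). The 21 cell cycle genes summed to 261 to 521 RPKM in Tfh against 203 to 420 in non-Tfh libraries, also overlapping when pooled. In Tomato+ cells their sum was higher in Tfh (481 and 521) than in non-Tfh libraries (329 and 420). In Tomato- cells it overlapped (314 and 261 against 203 and 280). The part of other cells and of cycling in the glycolysis difference was not tested.

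For T-bet history, the 1 gene that stood out was Pdk1, the kinase that shuts pyruvate dehydrogenase in hypoxia. Pdk1 had 22.3 and 22.6 RPKM in non-Tfh Tomato- cells but 2.51 and 1.12 in non-Tfh Tomato+ cells, and 16.8 and 20.1 in Tfh Tomato- against 16.1 and 9.30 in Tfh Tomato+ cells. All 4 Tomato+ libraries lay below all 4 Tomato- libraries, and the spleen libraries, at 14.5 to 15.2 RPKM, lay within the Tfh range. In non-Tfh cells the log2 fold change was -3.61 ± 0.49 (adjusted p = 0.0312), and averaged over Tfh and non-Tfh cells it was -2.08 ± 0.33 (adjusted p = 0.0382). In Tfh cells it was -0.55 ± 0.45 and did not pass. The interaction, which tests whether the change differs between Tfh and non-Tfh cells, was 3.06 ± 0.64 with an unadjusted p of 0.00129 and an adjusted p of 0.774.

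The call of Pdk1 in non-Tfh cells was lost in each of the 4 fits that left out 1 of the compared libraries (non-Tfh Tomato+ or Tomato-, replicate 1 or 2), with fold changes of -4.30 to -3.18 and adjusted p up to 0.150. The averaged call held in 1 of 8 such fits, that without non-Tfh Tomato+ replicate 1, with fold changes of -2.44 to -1.88 and adjusted p up to 0.111 over the 8. Without both Tomato- replicate 2 libraries neither call held (adjusted p = 0.183 and 0.216). Beside it, the summed RPKM of 14 macrophage and monocyte genes was 1624 and 1745 in non-Tfh Tomato- and 302 and 242 in non-Tfh Tomato+ cells, and 1185 and 1403 in Tfh Tomato- against 636 and 480 in Tfh Tomato+ cells, with none of the 14 at 0 in any group. Lyz2, Apoe and Cybb of that list fell in non-Tfh Tomato+ cells, when 0.332% of all genes tested passed. The 7 NK and innate-like T cell genes summed to 84.1 and 92.2 RPKM in non-Tfh Tomato+ and 20.1 and 8.20 in non-Tfh Tomato- cells. In the same comparison 1 of them, Klrk1, rose. The 21 cell cycle genes summed to 481 and 521 RPKM in Tfh Tomato+, 314 and 261 in Tfh Tomato-, 329 and 420 in non-Tfh Tomato+ and 203 and 280 in non-Tfh Tomato- cells. All 4 Tomato+ libraries thus lay above all 4 Tomato- libraries. In the averaged comparison the median log2 fold change over the 21 genes was 0.95. There 1 of them, Rrm2, passed, when 0.656% of all genes tested did. The part of such cells and of cycling in the Pdk1 difference was not tested.

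Counted over the list, 1 of 38 genes fell and none rose in non-Tfh Tomato+ cells, when 0.332% of genes passed, with 6 of 38 at an unadjusted p below 0.05 against 8.94%. In Tfh cells 0 of 38 passed in edgeR and 0 in DESeq2, when 0.111% and 2.26% of genes passed. In these cells 1 of 38 (Idh3a, 0.97 ± 0.32) had an unadjusted p below 0.05 in edgeR, against 5.83%. Averaged over both, 1 fell and none rose, when 0.656% passed, with 5 at an unadjusted p below 0.05 against 11%. For the interaction 0 passed in edgeR, as for all genes (0%), with 4 at an unadjusted p below 0.05 against 6.35%, and DESeq2 called Aldoc, Tpi1 and Pdk1, when it passed 1.56% of all genes. The averaged median over the 38 was 0.02, beside 0.00 for all genes.

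By the same count of libraries that do not overlap, no gene lay higher and 3 lay lower in the 4 Tomato+ than in the 4 Tomato- libraries, namely Pdk1, Pdk2 and Rpia, when 5.52% of genes lay on either side. Pdk2 had 9.37 and 6.76 RPKM in Tfh Tomato-, 0.0977 and 3.63 in Tfh Tomato+, 7.15 and 25.5 in non-Tfh Tomato- and 5.43 and 5.72 in non-Tfh Tomato+ cells (-1.84 ± 0.98, adjusted p = 0.565). Rpia, the ribose phosphate isomerase, had 3.38 and 4.86, 0.832 and 0.725, 2.46 and 5.11, and 0.121 and 1.30 RPKM in that order (-2.39 ± 1.20, adjusted p = 0.536). The lowest values of Pdk2 and Rpia rested on 6 and 5 reads. Tpi1 and Pgd, which the non-Tfh Tomato- libraries held low, were 1.23 ± 0.29 and 1.35 ± 0.35 higher in non-Tfh Tomato+ cells on the log2 scale (adjusted p = 0.206 and 0.284). Dlat, a core subunit of pyruvate dehydrogenase, had 9.12 and 1.47, 16.2 and 3.45, 14.2 and 24.3, and 9.75 and 9.75 RPKM in that order and overlapped between Tomato+ and Tomato- libraries. Pdha1 and Pdhb ranged from 18.8 to 42.1 and from 27.0 to 58.6 RPKM in the lymph node, and did not pass in any of the 7 lymph node comparisons. None of the transport, further pathway or regulator genes passed in edgeR for Tomato+ against Tomato- cells in Tfh cells, in non-Tfh cells or averaged. In the averaged comparison 2 of 8 transport genes, 3 of 16 further glycolysis genes and 1 of 18 further TCA cycle genes had an unadjusted p below 0.05. None of the others did, against 11% of all genes tested. Slc2a3 came nearest among the transporters, at 1.88 and 3.86 RPKM in Tfh Tomato-, 37.5 and 18.7 in Tfh Tomato+, 11.9 and 0.359 in non-Tfh Tomato- and 49.1 and 31.2 in non-Tfh Tomato+ cells (3.02 ± 0.85, adjusted p = 0.262).

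Where a step has several isozymes, 1 gene held nearly all of the RPKM for 3 of them in each library. Ldha made up 93.5% to 99.99% of lactate dehydrogenase, Aldoa 96.6% to 99.99% of aldolase and Hk1 89.7% to 99.0% of hexokinase RPKM. Phosphofructokinase was shared, with Pfkp at 49.7% to 67.9%, Pfkl at 28.7% to 45.8% and Pfkm at 0.154% to 9.36%. Its summed RPKM was 106 to 129 in the 4 Tfh libraries against 54.4 to 64.7 in the 4 non-Tfh and 67.1 to 70.0 in the 4 spleen libraries. The kinases of pyruvate dehydrogenase had the most changeable make-up. Pdk1 made up 41.5% to 44.4% of their RPKM in the spleen, 22.2% to 46.3% in Tfh, 38.2% to 55.8% in non-Tfh Tomato- and 7.12% to 11.1% in non-Tfh Tomato+ libraries. Their sum in non-Tfh Tomato+ cells, 15.8 and 22.5 RPKM, lay below that of every other library, which started at 34.0. In the TCA cycle Mdh2 held 67.4% to 78.5% of malate dehydrogenase RPKM and the cytosolic Mdh1 the rest.

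**Figure D5:**
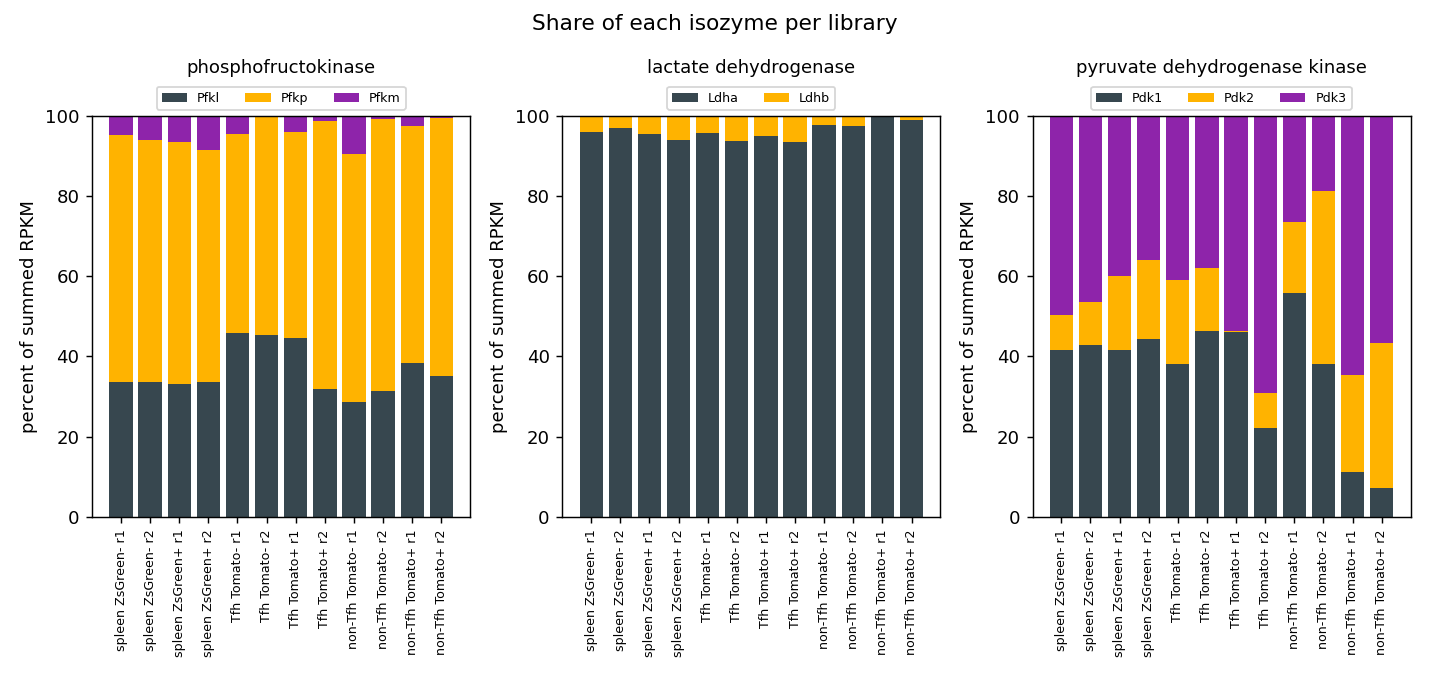
Share of each isozyme in the summed RPKM of its family, in percent, for phosphofructokinase, lactate dehydrogenase and pyruvate dehydrogenase kinase, 1 bar per library (r1 and r2 are the replicates). Ldha fills nearly the whole of each lactate dehydrogenase bar, and the Pdk1 share is 11.1% and 7.12% in the 2 non-Tfh Tomato+ libraries.

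Pyruvate kinase is made in alternative forms that differ in a single exon, and the tables hold 2 rows under Pkm2, each 2432 bases long. The other row had 8.43% to 10.03% fewer reads than the row used here in all 12 libraries. The sources used here do not say how reads of shared exons were divided between the rows, so no level of either form is given.

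Set beside each other without a test, the 8 lymph node libraries lay above the 4 spleen libraries for Aldoa, Gapdh and Pkm2 and below them for Hk1, Pdha1 and Tkt, when 11.7% of the 10522 genes lay on either side. Aldoa had 352 to 580 RPKM in the lymph node and 269 to 352 in the spleen, and Tkt 29.3 to 58.5 against 75.1 to 85.5. The pentose phosphate sum was 322 to 352 RPKM in the spleen and 216 to 283 in the lymph node. Markers of other cells differed too. The summed RPKM of 7 erythroid genes was 183 to 223 in the spleen and 0 to 22.6 in the lymph node. That of 10 neutrophil genes was 778 to 1197 and 0.764 to 450, while that of 14 macrophage and monocyte genes overlapped. Tissue, mouse strain, immunization and library set differ together here and cannot be told apart.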

How the data were processed

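RNA libraries of 6 sorted CD4 T cell groups, 2 per group, were used; 8 DNase libraries were not used here. Per the file headers, the authors deposited read counts and RPKM for each of 29257 transcript rows. In the spleen tables the headers of the count and length columns are exchanged, which was settled from the values. The submitters' processing notes name CASAVA 2.18, Bowtie2, SICER 1.1, edgeR and the mm9 build, with no role or order. For each symbol the row with the most reads was kept. Counts were tested with edgeR 4.0.16 in R 4.3.3 (TMM, filterByExpr, quasi-likelihood F test, Benjamini-Hochberg over all genes tested, threshold 0.05), with the 4 spleen libraries and the 8 lymph node libraries fitted separately. The standard error is the absolute log2 fold change divided by the root of F. Comparisons within the lymph node share libraries. The code was tested on simulated data. Alternatives were DESeq2 1.42.0, limma 3.58.1 on log2(RPKM + 1) and log2(RPKM + 0.1), other scaling, filters, transcript rows and sample sets. The members and the further gene lists were chosen with earlier results of these data known. Members are described with library values where they passed or had the largest fold changes; of the further lists up to 3 passing genes are named by smallest adjusted p, and Slc2a1, Slc2a3 in the lymph node, Myc, Rptor, Txnip and the named marker genes were named after their values were seen.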

Additional observations from a re-analysis of the deposited data

How the results depend on the processing

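In spleen, leaving out 1 library gave log2 fold changes of -0.42 to -0.34 for Ldha, -1.28 to -1.14 for Aldoc and -0.47 to -0.27 for Pdk3. Those of Aldoa, Pdk2 and Mdh1 were 0.20 to 0.31, 0.80 to 1.13 and 0.21 to 0.29. In the lymph node, DESeq2 called more genes of the list than edgeR. For Tomato in non-Tfh cells it called 4 (against 1). For Tfh against non-Tfh it called 3 (against 0) in Tomato+ and 6 (against 0) in Tomato- cells. For the averaged Tfh comparison it called 11 (against 2), of which 8 were higher and 3 lower. The averaged Tomato comparison had 2 (against 1) and the interaction 3 (against 0). In the same order DESeq2 passed 4.82%, 3.53%, 4.51%, 6.15%, 5.19% and 1.56% of all genes. The shares in edgeR were 0.332%, 0.0766%, 0.179%, 1.07%, 0.656% and 0%. The non-Tfh Tomato call (Pdk1) went to 0 with the compared libraries fitted alone, when 0.0283% of all genes passed, against 0.332% in the main fit. In the fits without 1 library the log2 fold change of Pdk1 was -4.30 to -3.18. For Tfh against non-Tfh without the low-count filter, 1 gene (Pdk1) was called in Tomato+ and 1 (Tpi1) in Tomato- cells. Of all genes 0.365% and 0.387% passed there. Limma with either pseudocount (1 each) and a filter of 5 RPKM (1) also called Tpi1 in Tomato- cells. The shares of all genes were 0.391% for log2(RPKM + 1), 0.236% for log2(RPKM + 0.1) and 0.727% for the filter of 5 RPKM. The averaged Tfh count went to 1 with the longest transcript row, when 0.988% of all genes passed. The averaged Tomato count went to 0 with limma at either pseudocount, when 0.954% (log2(RPKM + 1)) and 0.736% (log2(RPKM + 0.1)) of all genes passed. Fits that leave 1 library in a group assume that it varies like the others. For each of these changes the cause was not tested. The fold change of Pfkm in non-Tfh cells by Tomato turned from -1.66 to 0.88 without non-Tfh Tomato- replicate 1, and the fits without 1 library gave -3.35 to 0.88. With the replicate number as a block, 0 genes of the list were called in the averaged Tfh comparison and 8 in spleen. Of all genes 0.639% and 26.0% passed in these 2 fits. Same-numbered libraries correlated at 0.123 in spleen and at -0.0139 to 0.0265 in the lymph node. Nothing in the labels says that the numbers pair samples. With 2 libraries per group and the lymph node's spread, small changes were not detectable.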
